A study of Homo sapiens with 8 samples.

Results

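The cytosolic ribosome of human cells is built from ribosomal RNA and the products of ribosomal protein genes, and 85 of the 26475 genes in the deposited count table carry a symbol of that family. The members were chosen by symbol alone, as RPL or RPS with a number and an optional A, X, L or L1 ending, or as RPLP0, RPLP1, RPLP2 or RPSA. Of these, 53 encode proteins of the large subunit or their paralogs and 32 encode proteins of the small subunit or their paralogs. The symbol rule used no measured value, though it was chosen with earlier results of these data known.

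RNA was sequenced from 8 libraries of BT474, an established human breast cancer line with amplified ERBB2. All 8 came from this line, 4 labelled NPY1R high and 4 labelled NPY1R low, where NPY1R encodes neuropeptide Y receptor Y1. The series title places the libraries in a study of persisters that survive lapatinib, a kinase inhibitor aimed at ERBB2 and EGFR, and the labels name no drug, time or added gene for any of them. How high and low cells were separated, and whether replicates were separate cultures, is not given in the sources used here, so p-values measure the spread between these libraries, which may be technical.

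Ribosomal proteins assemble with ribosomal RNA in the nucleolus, and the small subunit reads the messenger RNA while the large subunit joins amino acids. Cells keep these proteins in balance, and most of their mRNAs begin with a C followed by an unbroken run of pyrimidines, the terminal oligopyrimidine start. Through that start the mTORC1 kinase and the protein LARP1 are known to control their translation, which mRNA levels alone do not report. Transcription of the genes is known to respond to MYC and to growth.

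The start was read from RefSeq promoter windows (GRCh38.p14), which held an entry for 68 of the 85 members. The sequences below run 5′ to 3′ over the 20 bases before the annotated start and the 10 bases from it. Capitals mark the run of pyrimidines that opens with C at the start. The set shows the genes with the largest positive changes that had an entry, the most abundant gene, and 3 paralogs beside their parent genes.
RPS3 (chr11:75399498-75399527, + strand): cttccgcccgcgagccacttCCTTTCCTTT
RPS29 (chr14:49598701-49598730, - strand): ttttcccccgagcgcgcagctggcagcggt
RPS16 (chr19:39435940-39435969, - strand): ccagggtggcccctagctttCCTTTTCCgg
RPS12 (chr6:132814549-132814578, + strand): ggcatgcgtgcggatgaggcCTCTTTCCCT
RPL19 (chr17:39200263-39200292, + strand): gggtttgggctctccccttcgcagataatg
RPL22 (chr1:6199586-6199615, - strand): ctgcgtagttcgctcacctcCCTTTCTaac
RPL22L1 (chr3:170870186-170870215, - strand): gaccgcgcggccgtagcttcCTCTCTgctc
RPL26 (chr17:8383184-8383213, - strand): accggaagcagcgtgtagttCTCTTCCCTT
RPL26L1 (chr5:172958709-172958738, + strand): caggcagtcttccaggggtcggcgaacgaa
RPS27 (chr1:153990742-153990771, + strand): gcaggatttccgctttcgctCCTTTCCggc
RPS27L (chr15:63157468-63157497, - strand): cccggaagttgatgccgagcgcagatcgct

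RPS3, RPS16, RPS12 and RPL22L1 carried a C and at least 4 further pyrimidines at the annotated start. RPS29, RPL19, RPL26L1 and RPS27L did not, which says only that these letters are absent at their annotated starts. In all, 47 of the 68 members with an entry had such a start (69.1%), against 5.14% of the 27305 genes in the RefSeq table. A gene was counted when any of its annotated starts had it. Among the 62 of these members that are not paralogs, 46 had it.

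Promoter letters were searched on both strands from 250 bases before the start to 50 after it, and a match describes letters only. A match at any annotated start of a gene was counted. CCGGAAG, a core for ETS factors, stood in 35.3% of the 68 members and in 12.2% of all genes. GGGCGG, for SP1, stood in 58.8% and 48.3%, and AAGATGG, for YY1, in 13.2% and 7.11%. The E-box CACGTG, which MYC can bind, stood in 7.35% of the members and 8.77% of all genes, and TATAAA in 10.3% and 13.99%. The promoters of the 2 members that rose in NPY1R high, RPS3 and RPS29, are printed over the 250 bases before the start, with matches to the searched letters in capitals.
RPS3 (chr11:75399268-75399517, + strand): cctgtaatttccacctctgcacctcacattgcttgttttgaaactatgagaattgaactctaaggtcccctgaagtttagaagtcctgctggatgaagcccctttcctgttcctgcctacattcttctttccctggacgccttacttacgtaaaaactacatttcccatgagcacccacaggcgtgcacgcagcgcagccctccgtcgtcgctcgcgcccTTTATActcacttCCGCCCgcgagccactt
RPS29 (chr14:49598711-49598960, - strand): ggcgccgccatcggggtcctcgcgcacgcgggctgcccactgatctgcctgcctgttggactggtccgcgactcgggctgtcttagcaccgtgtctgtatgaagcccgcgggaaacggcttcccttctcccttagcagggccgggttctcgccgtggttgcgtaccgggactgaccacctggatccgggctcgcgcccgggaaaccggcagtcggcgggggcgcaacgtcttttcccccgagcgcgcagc

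The RPS3 window held TATAAA and GGGCGG on the reverse strand, close to the start. The RPS29 window held none of the 5 searched motifs.

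Libraries held 18025640 to 30609798 counts, without molecular identifiers, so reads are not independent molecules. NPY1R itself had 17256 to 28986 counts in the libraries labelled high and 2028 to 2709 in those labelled low, which fits the labels. The 8 luminal breast markers (ERBB2, EPCAM, KRT8, KRT18, KRT19, ESR1, GATA3 and FOXA1) summed to 6653 to 7737 CPM (counts scaled to a common library total by TMM) in NPY1R high and 6376 to 8683 in NPY1R low, and 2 of the 8 were higher and 2 lower in edgeR. KRT14, COL1A2, DCN and CD3E had 0 counts in every library. The summed fibroblast markers reached 10.8 to 17.5 CPM in NPY1R high and 10.4 to 17.4 in NPY1R low, the basal markers at most 8.81 and the immune markers at most 2.77 in any library. Endothelial markers summed to 9.22 to 15.5 CPM in NPY1R high and 13.5 to 18.2 in NPY1R low. Libraries differed in how levels followed transcript GC content, most of all NPY1R low replicate 4.

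With all 8 libraries, few ribosomal protein genes passed the test between the groups. Of the 83 members that passed the filter on low counts, RPS3 and RPS29 were higher in NPY1R high and RPL39L was lower, with the quasi-likelihood test of edgeR and an adjusted p below 0.05. That is 3 of 83 members (3.61%), against 13.6% of all 14008 genes tested, of which 5.78% were higher and 7.81% lower. The median log2 change, always NPY1R high minus NPY1R low, was 0.07 over the members and -0.03 over all genes tested (0.12 and -0.00 without NPY1R low replicate 4). Of the members 69 had a positive change and 14 a negative one, where 6177 of the 14008 genes tested were positive. TMM took NPY1R low replicate 4 as its reference. With 11 other scalings 74 to 77 members were positive. Their median was then 0.09 to 0.12, and that of all genes -0.00 to 0.03. Changes of single members ran from -0.46 to 0.37, so the largest in either direction was well under a 2-fold difference.

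In that fit, the share of members past the threshold was below that of all genes and that of other genes above a floor of CPM. Without NPY1R low replicate 4 the shares were close, with 12 of 83 members (14.5%) against 15.04% of all genes. Among the 2065 other genes at or above the CPM of the members' 10th percentile (103 CPM), 19.3% passed and the median log2 change was -0.07. Above that floor levels were not matched to those of the members. CPM values of the groups did not overlap for 6 members (7.23%), against 20.2% of all genes tested. Of these 6, RPL13A, RPL22L1, RPL37, RPS3 and RPS29 were higher and RPL39L lower, where 8.77% of all genes were higher without overlap and 11.4% lower. RPL3L and RPL10L, paralogs known from muscle and testis, had 0 counts in every library and were not tested. The 12 members past the threshold without NPY1R low replicate 4 were 10 higher and 2 lower. Without NPY1R high replicate 2 there were 5 (6.02%, against 10.4% of all genes), and 2 or 3 without any of the other 6. Scaling also set how calls over all genes divided: TMM gave 810 higher and 1094 lower, and upper-quartile factors 1009 higher and 783 lower.

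**Figure D1:**
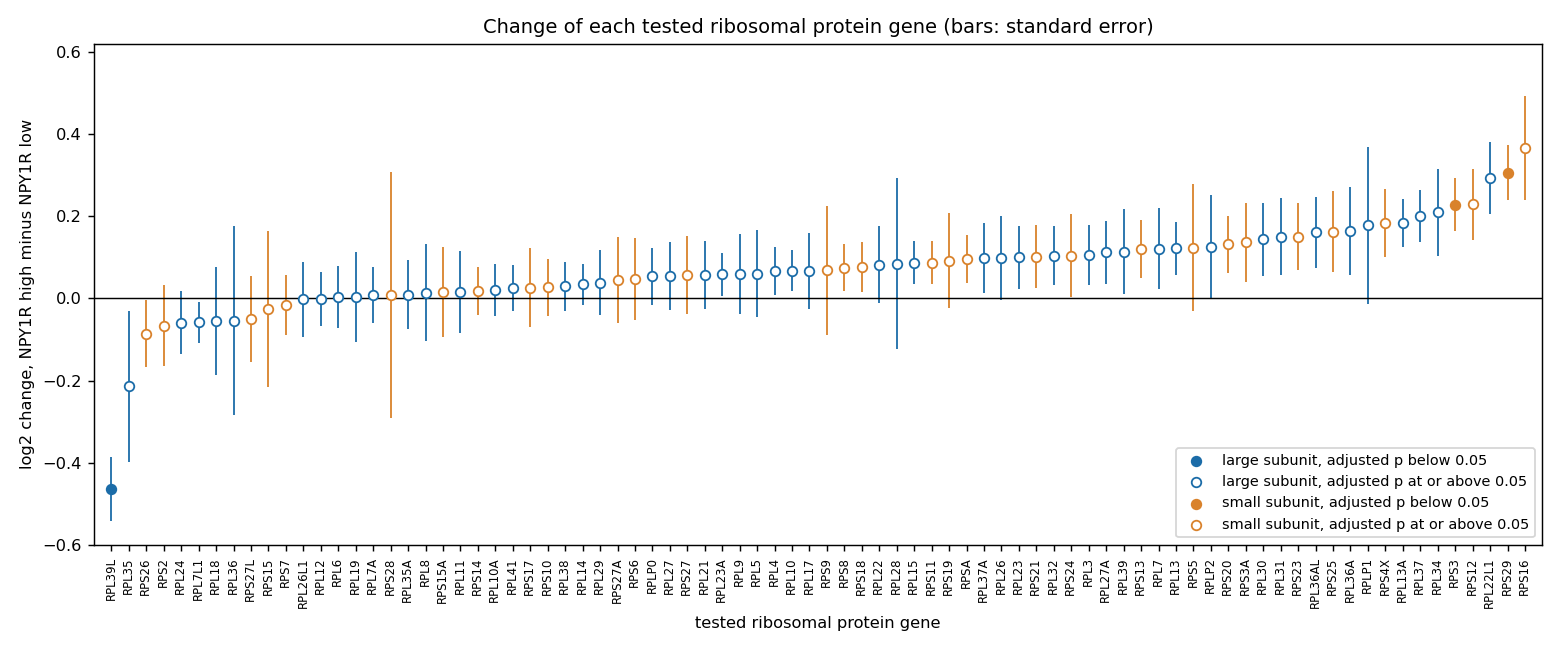
Log2 change (NPY1R high minus NPY1R low, vertical axis) of the tested ribosomal protein genes (1 of the 83 is not shown), ordered by change, with bars for the standard error, blue for the large and orange for the small subunit. Filled points mark an adjusted p under 0.05 (RPS3, RPS29 and RPL39L), and most open points lie between 0 and 0.2.

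RPS3 sits at the entry of the mRNA channel of the small subunit and is also known as a DNA repair protein (chromosome 11, 75399518 to 75422302). It had 1590.0, 1481, 1713 and 1679.9 CPM in NPY1R high replicates 1 to 4. In NPY1R low it had 1377, 1296, 1388 and 1455 CPM. Every NPY1R high library lay above every NPY1R low library, although NPY1R high replicate 2 exceeded NPY1R low replicate 4 by little. The means were 1616 ± 104 and 1379 ± 65.1 CPM (SD, n = 4), and the log2 change was 0.23 (SE 0.06, edgeR adjusted p 0.0415). The call was lost when any library other than NPY1R high replicate 2 or NPY1R low replicate 4 was left out, and the adjusted p reached 0.108.

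RPS29 is a small zinc-binding protein of the head of the small subunit (chromosome 14, 49570988 to 49598710). Its NPY1R high libraries had 217, 225, 261 and 246 CPM, and its NPY1R low libraries 183, 184, 200.2 and 199.9 CPM. The groups did not overlap, and replicates 3 and 4 were the higher libraries within each group. The log2 change was 0.31 (SE 0.07, edgeR adjusted p 0.0140), from means of 237 ± 19.9 and 192 ± 9.49 CPM (SD, n = 4). The call was kept when each library was left out in turn.

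RPL39L is a paralog of RPL39, a short protein that lines the exit tunnel for the growing peptide, and is best known from the testis (chromosome 3, 187120948 to 187139496). It had 20.6, 23.2, 21.4 and 18.8 CPM in NPY1R high and 28.5, 28.5, 29.3 and 29.7 CPM in NPY1R low. The NPY1R low libraries lay close together and all above the NPY1R high ones. Means were 20.99 ± 1.82 and 29.01 ± 0.570 CPM (SD, n = 4), so RPL39L fell by 0.46 on the log2 scale (SE 0.08, edgeR adjusted p 0.0032). The parent gene RPL39 had 395, 391, 513 and 467 CPM in NPY1R high and 379.5, 366, 427 and 459 CPM in NPY1R low. RPL39 did not pass the test, with a log2 change of 0.11 (SE 0.10). Of the counts of the pair, RPL39L took 4.96%, 5.60%, 4.00% and 3.86% in NPY1R high and 6.99%, 7.23%, 6.42% and 6.07% in NPY1R low. The coding sequences of the pair are identical at 145 of 153 bases (94.8%), so reads could be assigned to either gene, and how the counting divided such reads is not given in the sources used here.

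**Figure D2:**
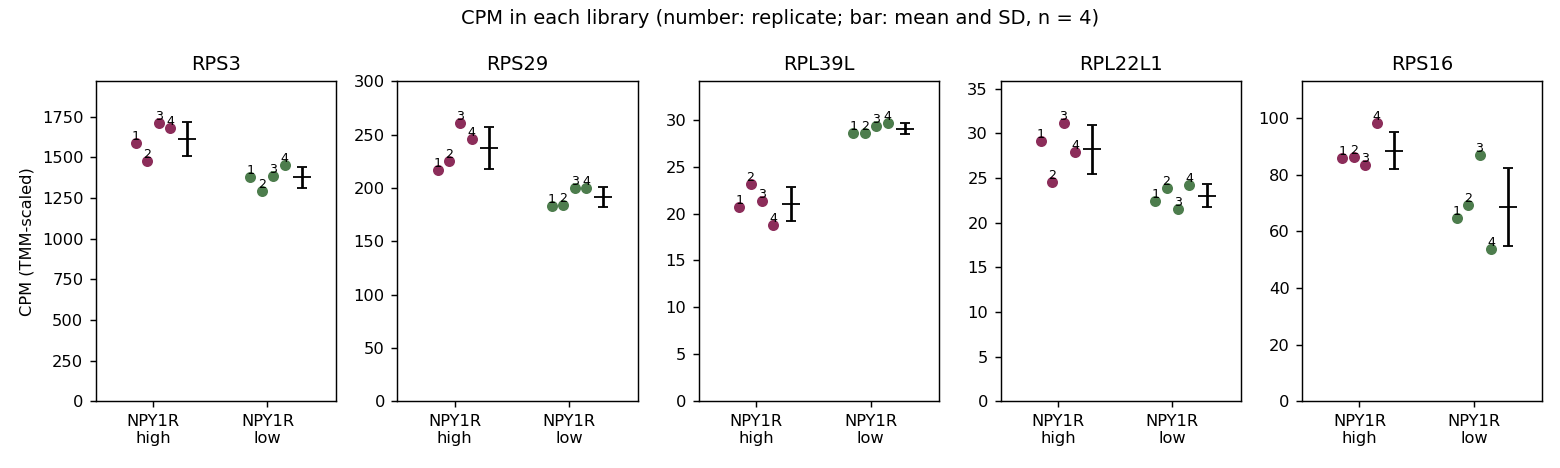
CPM (TMM-scaled, vertical axis from 0) of RPS3, RPS29, RPL39L, RPL22L1 and RPS16 in each of the 8 libraries, with replicate numbers at the points and the mean and SD (n = 4) as bars. The groups do not overlap except for RPS16, where NPY1R low replicate 3 lies among the NPY1R high libraries.

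The other members named for the size of their change did not pass in the main edgeR fit (all 8 libraries, TMM, no covariate). DESeq2 called RPL22L1 and RPS16 higher, and so did edgeR with the GC offset. RPL22L1, a paralog of RPL22 of low abundance, had 29.1, 24.6, 31.2 and 27.97 CPM in NPY1R high and 22.4, 23.9, 21.6 and 24.2 CPM in NPY1R low. Its groups did not overlap, its log2 change was 0.29 (SE 0.09), and its edgeR adjusted p of 0.0541 fell below the threshold in 20 of 30 alternatives. Among these were all 7 other TMM reference libraries, where the default reference was NPY1R low replicate 4. RPS16, whose tail reaches toward the transfer RNA, had 85.7, 86.3, 83.4 and 98.2 CPM in NPY1R high and 64.8, 69.2, 86.8 and 53.7 CPM in NPY1R low. Its log2 change of 0.37 was the largest positive one among the members, but its NPY1R low libraries ran from 53.7 to 86.8 and overlapped with NPY1R high (SE 0.13, edgeR adjusted p 0.0913).

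RPS12, a small subunit protein, had 514.5 to 639 CPM in NPY1R high and 437.5 to 536 in NPY1R low, with a log2 change of 0.23 and an edgeR adjusted p of 0.118. RPL37, a zinc-binding protein, and RPL13A, also known from interferon-triggered silencing of translation, did not overlap between the groups (log2 changes 0.20 and 0.18, edgeR adjusted p 0.0658 and 0.0663). They were chosen for mention after their values were seen. By edgeR, both were called higher with library totals or TMM without ribosomal protein genes. With median-of-ratios or upper-quartile factors, edgeR called RPL13A but not RPL37. At the other end, RPL35, near the exit of the peptide tunnel, had 397, 313, 309 and 342 CPM in NPY1R high and 465, 493, 369.5 and 251 CPM in NPY1R low. Its log2 change was -0.21 (SE 0.18), and NPY1R low held both its highest and its lowest library. Without NPY1R low replicate 4 it passed as lower, at -0.34 (edgeR adjusted p 0.0474). In the same fit RPS12 passed as higher, at 0.33 (edgeR adjusted p 0.0246). RPS26 (-0.09), RPS2 (-0.07) and RPL24 (-0.06) followed, each with an edgeR adjusted p of 0.584 or more.

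The stalk, 5S and ubiquitin-fusion genes and the listed anaemia genes held 0 members past the threshold in edgeR, DESeq2 or limma-voom, and 0 at an unadjusted p below 0.05 in edgeR. The stalk recruits translation factors to the large subunit, and its genes RPLP0, RPLP1, RPLP2 and RPL12 had log2 changes of 0.05, 0.18, 0.13 and -0.00. RPLP1 had 195, 179, 167 and 190.2 CPM in NPY1R high and 172, 201, 179.65 and 93.1 CPM in NPY1R low, with NPY1R low replicate 4 far below the rest. RPLP2 had 139 to 156 CPM in NPY1R high and 148, 157, 144 and 97.8 CPM in NPY1R low, again lowest in that replicate. Without it the log2 changes of RPLP1 and RPLP2 were 0.02 and 0.03. RPL5 and RPL11, which join the 5S ribosomal RNA and can bind MDM2 to stabilise p53, had changes of 0.06 and 0.02. RPS27A, made as a fusion to ubiquitin, had a change of 0.04. The 9 listed genes mutated in Diamond-Blackfan anaemia, a failure of red cell production, had a median of 0.03, with 7 of 9 positive.

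Paralogs other than RPL39L did not pass in the main edgeR fit. RPL22L1 passed with DESeq2 and with edgeR under other scalings of all 8 libraries. RPL36AL, 89.9% identical to RPL36A in coding sequence, took 30.7% to 33.1% of the counts of that pair and had a log2 change of 0.16. RPS27L (77.8% identical to RPS27) and RPL26L1 (84.1% identical to RPL26) had changes of -0.05 and -0.00. RPL7L1, 55.2% identical to RPL7 and known as an assembly factor, had a change of -0.06 and the smallest spread within groups of any tested member (SD 0.05 on the log2 scale). A further 31 rows with pseudogene symbols of this family held counts equal to 0.254% to 0.299% of the members' counts, so their values are uncertain together with those of their parent genes.

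The subunits were compared by their medians and by summed counts, with no test. Of the 51 large subunit genes tested, 0 were higher and 1 was lower past the threshold, and the median log2 change was 0.06, with 42 positive. At an unadjusted p below 0.05 edgeR held 4 of these 51, against 3673 of the 14008 genes tested. At the adjusted threshold DESeq2 called RPL13A, RPL22L1 and RPL37 higher. So did edgeR with library totals or TMM without ribosomal protein genes. Of the 32 small subunit genes, 2 were higher and 0 lower, the median was 0.08, and 27 were positive. By edgeR 4 of these 32 had an unadjusted p below 0.05. Without NPY1R low replicate 4 the medians were 0.11 for the large and 0.14 for the small subunit. The ratio of large to small subunit counts was 2.44, 2.505, 2.36 and 2.41 in NPY1R high and 2.56, 2.55, 2.51 and 2.35 in NPY1R low. The groups overlapped, since NPY1R low replicate 4 had the lowest ratio of all. Without RPL19 and RPL23, a choice made after seeing the data, the ratio was 1.503 to 1.56 in NPY1R high and 1.54 to 1.56 in NPY1R low.

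As a share of all counts, the members took 5.31%, 5.30%, 5.77% and 5.60% of the NPY1R high libraries. They took 5.12%, 5.07%, 5.06% and 5.14% of the NPY1R low libraries. The ranges did not overlap, with means of 5.49% ± 0.231 and 5.10% ± 0.0383 (SD, n = 4), a ratio of 1.08. Fewer cells of a type and less RNA per cell cannot be told apart in such bulk libraries. With the 10 most abundant genes of the table left out, RPL19 and RPL23 among them, the means were 4.60% and 4.20%. The ranges then stayed apart only narrowly, with NPY1R high replicate 2 at 4.325% and NPY1R low replicate 4 at 4.321%. With only RPL19 and RPL23 left out of the members' sum, the means were 4.04% ± 0.207 and 3.72% ± 0.123 (SD, n = 4). There the ranges overlapped, from 3.86% to 4.29% and from 3.62% to 3.90%.

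**Figure D3:**
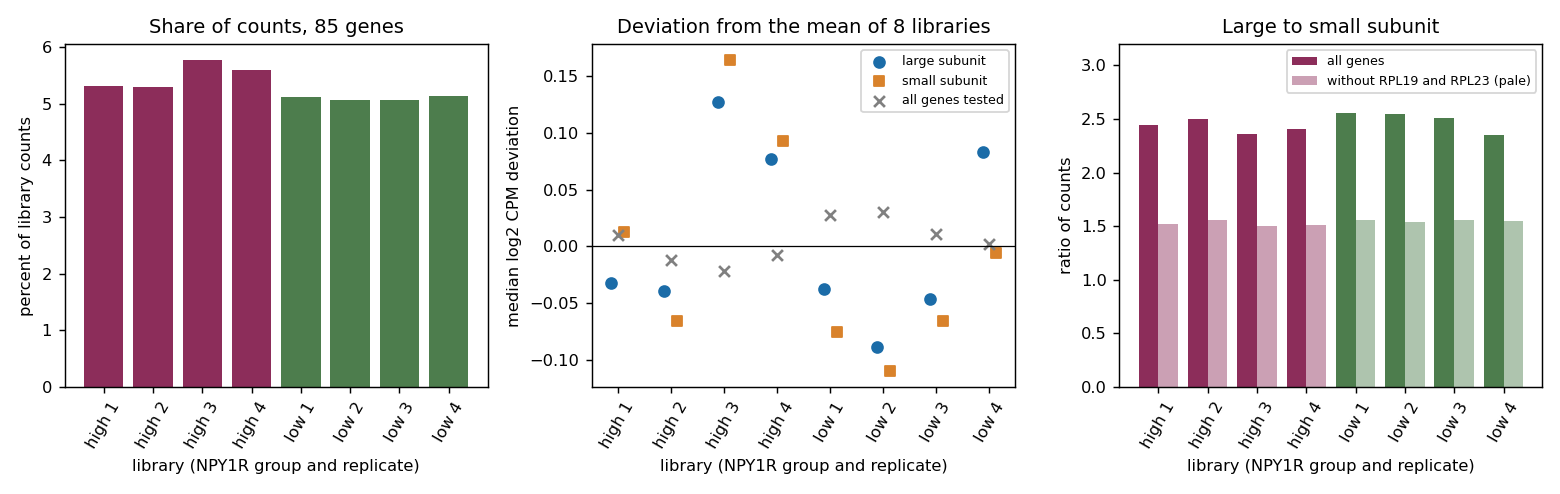
By library, the members' percent of counts (left, from 0), the median log2 CPM deviation from each gene's mean over 8 libraries for large subunit, small subunit and all tested genes (middle), and the ratio of large to small subunit counts with and without RPL19 and RPL23 (right, from 0). Shares are 5.30% to 5.77% in NPY1R high and 5.06% to 5.14% in NPY1R low, while the medians and ratios of the groups overlap.

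RPL19 and RPL23 stood apart in level. RPL19 averaged 9146 CPM and held 17.3% of the members' counts, and RPL23 averaged 5008 CPM and held 9.43%, while RPS3 and RPLP0 came next at 1498 and 1490.3 CPM. Per kb of the shortest principal transcript, RPL19 had 12409 CPM, RPL23 8012 and RPS27 2346, and the gene ranked 43 of the 85, RPL3, had 554. Per kb of coding sequence RPL41, which has the shortest reading frame known in the family, came close to them, with 10755 CPM against 15554 for RPL19 and 11923 for RPL23. The low end also depended on the length used. RPS27L, with a transcript of 6434 bases and a coding sequence of 252, had 3.56 CPM per kb of transcript and 90.8 per kb of coding sequence. By coding sequence RPL26L1 was the lowest of the genes with counts, at 45.3.

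Both genes lie on chromosome 17 beside ERBB2, which is amplified in this line. RPL23 spans 38847860 to 38853721 and RPL19 39200283 to 39204732 (GRCh38.p14), so that they end 834 kb and 483 kb before ERBB2 at 39688094 to 39728658. Copy number was not measured here, and its part in the level was not tested. Neither gene passed the test, with log2 changes of 0.00 for RPL19 and 0.10 for RPL23. RPL19 had 8669 to 9472 CPM in NPY1R high and 10307, 9982.6, 9100.1 and 7146 CPM in NPY1R low, the last in replicate 4.

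**Figure D4:**
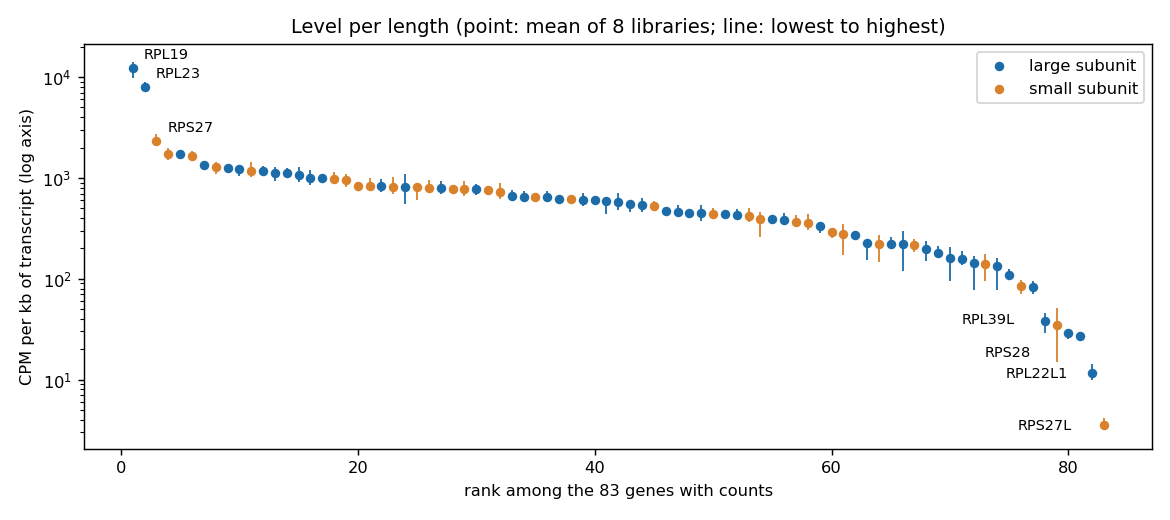
CPM per kb of transcript (log axis) of the 83 ribosomal protein genes with counts, ordered by level, as the mean of 8 libraries (points) with a line from the lowest to the highest library. RPL19 and RPL23 lie highest at 12409 and 8012, RPS27 follows at 2346, and RPL22L1 and RPS27L are the lowest at 11.7 and 3.56.

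Coherence was described from each member's log2 CPM deviation from its mean over the 8 libraries. The median deviation was -0.02, -0.05, 0.14 and 0.08 in NPY1R high replicates 1 to 4 and -0.05, -0.09, -0.05 and 0.05 in NPY1R low. The groups overlapped, with NPY1R low replicate 4 above NPY1R high replicates 1 and 2. In NPY1R high 37, 18, 68 and 74 of the 83 members lay above their mean, and in NPY1R low 31, 28, 16 and 47. Medians of the small and large subunit had opposite signs in NPY1R low replicate 4 (-0.01 and 0.08) and in NPY1R high replicate 1 (0.01 and -0.03).

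The members did not move as a single block. A shift of all members by the library median held 3.63% of their variance, and 18.2% once each library's GC trend was removed. The leading principal component held 69.7%. The median correlation between members over the 8 libraries was 0.35. It was 0.76 among the 28 GC-richest members (GC at or above 52.2%), 0.88 among the 28 GC-poorest (at or below 47.6%), and -0.38 between these sets. With the GC trend removed these values were 0.49, 0.48, 0.80 and 0.15, all over libraries of the same deposit. Without NPY1R low replicate 4, as chosen after seeing the data, the library median held 17.1% of the variance and the leading component 71.5%. The median correlation was then 0.51, with 0.53 and 0.91 within the GC-rich and GC-poor sets and -0.15 between them. The division by GC was chosen after the values were seen and was given no test.

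NPY1R low replicate 4 showed the widest spread among members, with an SD of 0.302 against 0.0648 to 0.194 in the other 7 libraries. There the GC-richest members had a median deviation of -0.36, with 26 of 28 below their mean, and the GC-poorest 0.14, with 25 of 28 above. RPS28, a small subunit protein with a GC of 56.8%, had 19.9 CPM in that library and 37.9 to 67.5 in the others. RPL36, with the highest GC of the members at 63.6%, had 53.1 CPM there and 86.0 to 133 in the others. RPL28 and RPS15 were also lowest there, each by more than 0.6 below its mean on the log2 scale. RPL39L, RPS15A and RPS6, the classic target of S6 kinase, lay farthest above their means there, at 0.27, 0.25 and 0.24. For RPL39L the other NPY1R low libraries were close, with 28.5, 28.5 and 29.3 CPM against 29.7 in replicate 4. Without that library RPL39L still passed as lower, at -0.42 (edgeR adjusted p 0.0092).

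Across members, Spearman's rho between GC and deviation ran from -0.752 in NPY1R low replicate 4 and -0.732 in NPY1R high replicate 3 to 0.721 in NPY1R low replicate 1. Over all genes tested the same values were -0.554, -0.420 and 0.450, each in the direction of the members (genes are not independent replicates). Removal of each library's GC trend left part of this among the members. Their rho was then -0.473, -0.215 and 0.295 in these libraries, and 0.421 in NPY1R high replicate 1. Values with the GC trend removed are thus not free of GC for the members. The spread of members within groups (median SD 0.131 on the log2 scale) was below that of all genes (0.161). It was above that of the 2065 other genes at or above 103 CPM (0.0920). RPL7L1 and RPL10 varied least (0.05 each), and RPS28 (0.57) and RPL36 (0.43) most. The part of GC content in the changes between groups was not tested. With each library's GC trend taken out as an offset, 6 members passed the threshold (5 higher and 1 lower, 7.23%, against 20.4% of all genes), and the median change over all members was 0.07.

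**Figure D5:**
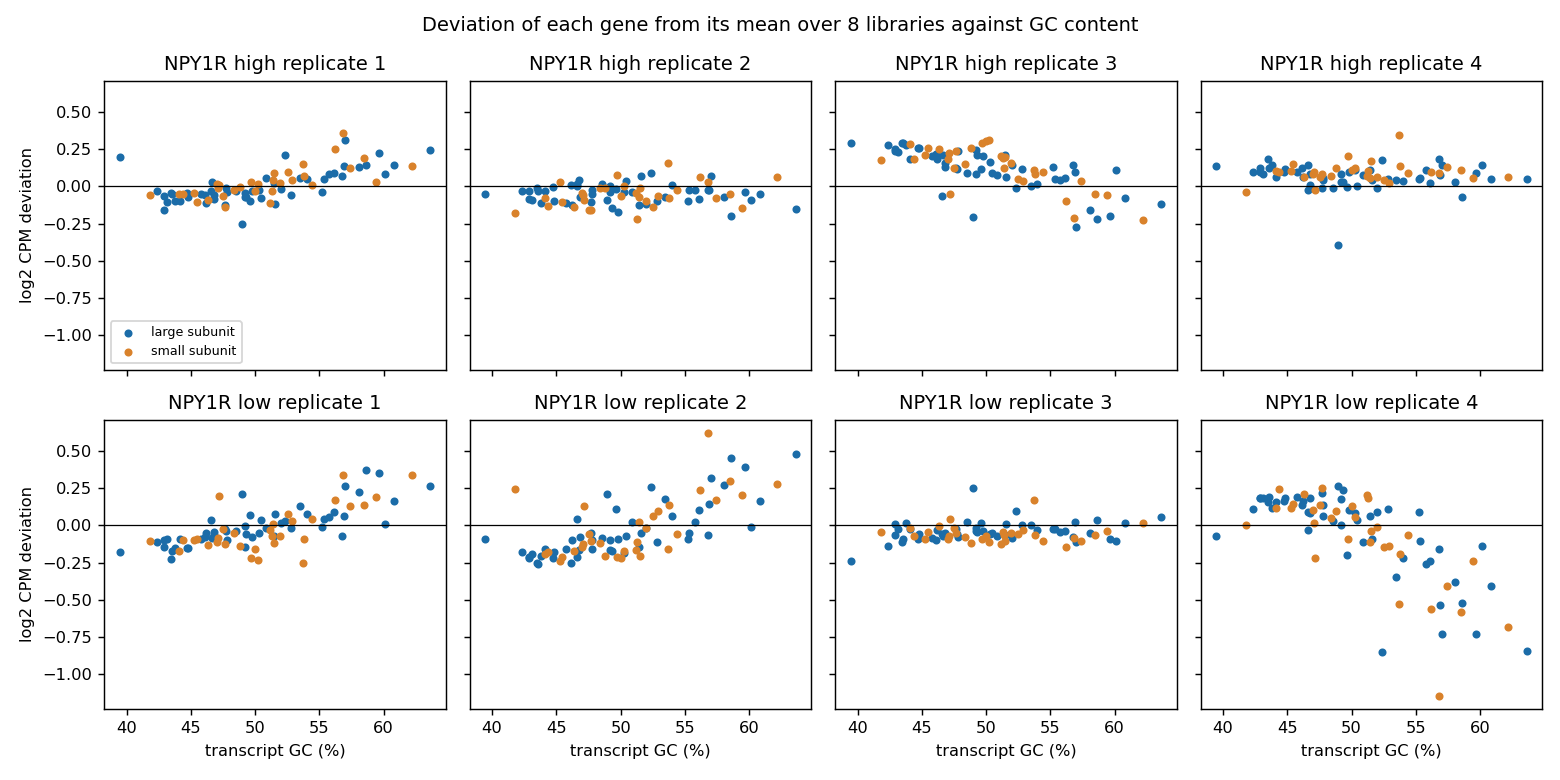
Log2 CPM deviation of each of the 83 members from its mean over the 8 libraries (vertical axis) against transcript GC content in percent, by library, with the large subunit in blue and the small in orange. Points fall with GC in NPY1R low replicate 4 and NPY1R high replicate 3, rise in NPY1R low replicates 1 and 2 and NPY1R high replicate 1, and are near flat in the other 3.

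Replicates 1 and 2 gave another size of change than replicates 3 and 4, a division made after seeing the data. Between replicates 1 and 2 of each group the members' median log2 change was 0.01, with 43 of 83 positive, and that of all genes was -0.04. Between replicates 3 and 4 the members' median was 0.14, with 80 of 83 positive, and that of all genes was 0.0009. The median of all genes thus also rose, by less than that of the members. RPS3 (0.20 and 0.26), RPS29 (0.27 and 0.34) and RPL39L (-0.38 and -0.56) kept their direction in each part, and the difference between the 2 divisions was not tested.

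By start sequence, the 47 members with a C and 4 pyrimidines at an annotated start had a median log2 change of 0.08. Of these, 42 were positive and 1 was past the threshold. The 20 tested members with an entry but no such start had a median of 0.04, with 14 positive and 1 past the threshold.

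Other genes of the pathway were read from lists. FAU, which encodes a small subunit protein fused to a relative of ubiquitin, and RACK1 (listed under its older symbol GNB2L1), a scaffold on the small subunit, had log2 changes of -0.01 and 0.05, with edgeR adjusted p of 0.975 and 0.581. Of the 18 translation factors and other mRNAs known for a terminal oligopyrimidine start, 0 passed in edgeR, DESeq2 or limma-voom (2, 1 and 2 at an unadjusted p below 0.05), and their median was 0.03. Of 62 tested ribosome biogenesis factors 0 were higher and 1 was lower, NMD3, the export adaptor of the large subunit (-0.23, edgeR adjusted p 0.0308), with a median of -0.01. DESeq2 also called NAT10 higher. Of 11 genes of the RNA polymerase I machinery, which makes ribosomal RNA, 0 passed in edgeR, DESeq2 or limma-voom (2, 1 and 2 at an unadjusted p below 0.05), and the median was -0.01. Of 77 mitochondrial ribosomal protein genes, which serve the separate ribosome of mitochondria, MRPL16 (0.51) and MRPL15 (0.24) were higher and MRPS15 (-0.25) lower, and the median was -0.04.

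Of 14 listed regulators 2 were higher and 0 lower (14.3%, near the share of all genes), with a median of -0.13. By edgeR 7 of the 14 had an unadjusted p below 0.05. MYC had 169.5, 159, 149.5 and 145 CPM in NPY1R high and 109.7, 116, 102 and 95.0 CPM in NPY1R low. Its groups did not overlap, and its log2 change was 0.56 (SE 0.07, edgeR adjusted p 0.000797). DEPTOR, which binds and restrains mTOR, had a change of 0.62 (edgeR adjusted p 0.00257). MTOR (-0.22) and LARP1 (-0.13) did not pass, with edgeR adjusted p of 0.141 and 0.282. All 20 listed proliferation markers were lower in NPY1R high, with a median of -0.90, and MKI67, a marker of cycling cells, had 36.7 to 50.9 CPM in NPY1R high and 78.9 to 101 in NPY1R low (log2 change -0.98, edgeR adjusted p 0.00032). The members' median of 0.07 stood beside a fall of these markers, and their part in the members' values was not tested.

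Outside the family, the genes whose log2 CPM most resembled the members' median deviation over the 8 libraries were TOMM7 (Pearson's r 0.985), STAU2 (0.980), ACAD11 (0.975), MBOAT1 (0.974) and EEF1G (0.974). These are the highest of all genes tested, given as a description over libraries that share depth and GC trend.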

How the data were processed

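Messenger RNA was sequenced from 4 NPY1R high and 4 NPY1R low libraries of BT474, per the labels. The authors deposited expected counts (estimated counts) by gene symbol with no scaling, since 7.97% to 8.76% of a library's values are not whole. The submitters' processing notes name hg38, STAR 2.5.2 and RSEM 1.3.0. The gene annotation used for counting is not given in the sources used here. Every column matched a labelled library.

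Counts were rounded to whole numbers, filtered with filterByExpr (minimum count 10, 14008 genes kept), scaled by TMM (trimmed mean of M values) and tested with edgeR 4.0.16 (quasi-likelihood, all 8 libraries, no covariate) in R 4.3.3, with Benjamini-Hochberg adjustment over all genes tested and a threshold of 0.05. CPM values are TMM-scaled, and log2 CPM used a prior count of 2. limma 3.58.1 and DESeq2 1.42.0 served as alternatives. Each library's GC trend was a spline with 5 degrees of freedom on the mean GC of a gene's GENCODE release 29 transcripts. Lengths came from the same release, and start sequences and positions from RefSeq. Replicates were compared in 12 pairs, and chi-square over degrees of freedom lay between 6.04 and 67.2, so each was counted as a sample of its own. The fit was tested on simulated counts.

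The members and lists were chosen with earlier results of these data known. Members are named when past the threshold, when among the 5 largest or 5 smallest changes or the 5 most abundant, when a paralog, parent, stalk or 5S gene, or when filtered out. List genes are named when past the threshold (at most 3 a list), with MYC, MTOR, LARP1, MKI67, FAU and RACK1 always. Some items are not reported here. Other named genes were chosen after their values were seen. Alternatives were other scalings, TMM references, filters, tests, a replicate block, a GC offset, a term for replicates 1 and 2 against 3 and 4, leaving out libraries, and a threshold of 0.01.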

Additional observations from a re-analysis of the deposited data

Results flagged for a closer look

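In groups of 4 libraries, a member was singled out where its highest or lowest library stood apart from the others by more of the group's range than Dixon's critical value for that size. Of 68 group values looked at, 2 did, where chance gives 3.4. RPL10 in NPY1R high replicate 2 had 564.0 CPM, below the 594.8 to 596.7 CPM of the other NPY1R high libraries, a gap of 0.940 of the range. RPL24 in NPY1R low replicate 4 had 276.7 CPM, above the 230.7 to 234.5 CPM of the other NPY1R low libraries, a gap of 0.917 of the range.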

How the results depend on the processing

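The number of members past the threshold, 3 with TMM and edgeR, was 5 with median-of-ratios or upper-quartile factors and with TMM references NPY1R high replicates 1, 2 and 4 or low replicate 3. It was 6 with library totals, TMM without ribosomal protein genes, TMM references NPY1R low replicates 1 and 2, no filter, 10 counts in every library, or the GC offset. It was 7 with DESeq2, 9 with the term for replicates 1 and 2 against 3 and 4, 14 with that term and the GC offset (chosen after seeing the data), 1 at a threshold of 0.01, and 2 to 12 when a library was left out. The replicate block gave 3, and 9 with the GC offset. In each of these settings the share of members past the threshold was below that of all genes tested. It was 8.43% against 15.1% with DESeq2 and 7.23% against 8.65% with no filter. With the term it was 10.8% against 20.6%, and with the term and GC offset 16.9% against 29.2%. Same-numbered libraries deviated together at r of 0.339, 0.157, 0.0907 and 0.0178. After removal of the GC trend these were 0.199, 0.186, 0.0854 and 0.104. Libraries with different numbers were not compared in this way, so these values cannot settle whether the numbers pair the libraries. The S number in the sample titles runs through NPY1R low and then NPY1R high of each replicate in turn. Over all genes, 1904 calls became 1833 with the block, 2851 with the GC offset and 3281 with both. They became 2886 with the term, 4084 with the term and GC offset, and 1032 at a threshold of 0.01. When a library was left out they were 1351 to 2132.

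RPL39L passed in 30 of 30 alternatives (log2 change -0.52 to -0.38), RPS29 in 29 of 30, RPS3 in 23 of 30 and RPS16 in 5 of 30. The members' median stayed above that of all genes in 29 of 29 fits (0.06 to 0.12), and the small subunit median above the large in 28 of 29. The part of the members' variance held by the library median, 3.63%, was 18.2% with the GC trend removed and 17.1% without NPY1R low replicate 4, both chosen after seeing the data. Of 1063 values, 55 changed sign, none of them past the threshold, and the cause was not tested. With median-of-ratios factors, upper-quartile factors, library totals and TMM without ribosomal protein genes, RPL12 turned positive at 0.0241, 0.0527, 0.0370 and 0.0384 and RPL26L1 at 0.0249, 0.0537, 0.0385 and 0.0382, and RPS27L at 0.00547 with upper-quartile factors. With TMM references NPY1R high replicates 1 to 4, RPL12 was 0.0291, 0.0284, 0.0235 and 0.0232 and RPL26L1 0.0299, 0.0301, 0.0254 and 0.0249, and with NPY1R low replicates 1 to 3, 0.0379, 0.0388 and 0.0314 and 0.0376, 0.0381 and 0.0319. With no filter, 10 counts in every library and DESeq2, RPL12 was 0.0389, 0.0397 and 0.0241 and RPL26L1 0.0383, 0.0392 and 0.0243. With the GC offset alone, with the block and with the term, RPL11 was -0.00153, -0.00166 and -0.00316 and RPL12 0.00966, 0.00729 and 0.00786. When a library was left out, changes near 0 crossed it for RPL11 (-0.0363 to 0.14), RPL12 (-0.0297 to 0.0645), RPL19 (-0.0613 to 0.0801), RPL24 (-0.0850 to 0.0436), RPL26L1 (-0.0277 to 0.0517), RPL7A (-0.0254 to 0.0834), RPS2 (-0.11 to 0.0180) and RPS27L (-0.0927 to 0.0294).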
